A study of Mus musculus with 11 samples.

Results

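The oxidative phosphorylation genes described here are the genes of the mouse mitochondrial genome, whose symbols start with mt-, and the protein-coding nuclear genes whose symbols start with Nduf, Uqcr, Atp5, Cox4, Cox5, Cox6, Cox7 or Cox8 or are Sdha, Sdhb, Sdhc, Sdhd, Cyc1 or Cycs. The rule used symbols only and no measured value. It found 133 of the 55487 genes in the files. Of these, 13 were mitochondrial mRNAs, 2 were mitochondrial ribosomal RNAs, 22 were mitochondrial tRNAs and 96 were nuclear genes. Of the nuclear genes, 36 belong to complex I, 4 to complex II, 9 to complex III, 20 to complex IV (with Ndufa4 and Ndufa4l2) and 17 to complex V, and 1 is Cycs, which encodes cytochrome c. The prefixes also brought in 9 genes that encode no subunit of the finished core complexes, Ndufaf1 to Ndufaf8, which are assembly factors of complex I, and Atp5s, a coupling factor of ATP synthase.

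RNA-seq was performed on 11 libraries of beta cells sorted by flow cytometry from islets of C57BL/6 mice (12-week-old C57BL/6JRj males in the methods). Islets were cultured for 20 h without IFNγ (control, 4 libraries) or with 50 pg/mL of IFNγ, a cytokine of T cells and natural killer cells. Treated beta cells were split by their surface level of PD-L1, an IFNγ-induced ligand that restrains T cells, into PD-L1low (3 libraries) and PD-L1high (4 libraries). The comparisons ask whether the beta cells that did and did not raise PD-L1 at a low dose of IFNγ differed from untreated cells and from each other. The labels and methods name no transgene or mutant allele, all cells came through the same beta cell gate on EpCam, CD24 and CD71, and the 2 comparisons with control share the same 4 control libraries.

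Library totals ran from 10422038 to 15810817 expected counts. Cd274, which encodes PD-L1 and on whose protein the cells were sorted, had 15.1 to 25.1 counts per 1000000 counts of the library (CPM) in controls, 30.5 to 47 in PD-L1low and 172.4 to 279.3 in PD-L1high libraries. The summed CPM of 8 beta cell marker genes ran from 60910 to 93673 over the 11 libraries. The 3 erythroid markers were at 0 in every library, and the 6 acinar markers summed to at most 0.896 CPM. The 4 duct markers, 2 of them tested and none at 0 throughout, summed to 125.6 to 208.4 CPM in controls, 207.8 to 228 in PD-L1low and 104.8 to 467.1 in PD-L1high libraries. Markers of other endocrine cells differed between the sorted groups. The summed CPM of 5 alpha cell markers, 4 of them tested and none at 0 throughout, was 228.3 to 1179 in controls, 180.7 to 243.2 in PD-L1low and 463.3 to 1326 in PD-L1high libraries, and that of Ppy was 95.7 to 273.1, 14 to 20.8 and 168.9 to 430.6. Their part in the results below was not tested.

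Oxidative phosphorylation is the transfer of electrons from NADH and succinate through complexes I to IV of the inner mitochondrial membrane to oxygen, with the proton gradient so built driving ATP synthase, or complex V. Complexes I, III, IV and V are assembled from subunits of both genomes, whereas complex II is wholly nuclear. In beta cells, ATP made this way from glucose closes potassium channels and leads to insulin release. The mitochondrial genes are transcribed as long precursors from both strands of a small circular genome and cut at their tRNAs.

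Reads from mitochondrial genes could not all be told apart from reads of nuclear copies of mitochondrial DNA. The copies matter most for mt-Co2, a core subunit of complex IV (chromosome M, 7013 to 7696, GRCm38). The annotation holds a pseudogene on chromosome 1, Gm28661, that matched mt-Co2 without a difference over 681 aligned bases, and Gm13341 on chromosome 2, which differed from it at 16 of 672 aligned bases. The stretches below show the same 90 bases of the 3 transcripts, read 5′ to 3′ from the GENCODE M21 transcripts (GRCm38), with capitals at the 7 positions where Gm13341 differs. They lie at chrM:7457-7546 on the plus strand, and at chr1:24615032-24615121 and chr2:22587441-22587530 on the minus strand.
mt-Co2: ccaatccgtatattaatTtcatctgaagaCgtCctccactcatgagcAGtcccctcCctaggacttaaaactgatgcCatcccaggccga
Gm28661: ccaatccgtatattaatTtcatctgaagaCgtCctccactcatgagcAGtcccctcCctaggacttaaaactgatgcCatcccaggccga
Gm13341: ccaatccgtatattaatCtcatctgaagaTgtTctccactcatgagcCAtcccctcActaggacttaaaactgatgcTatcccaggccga

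No read inside such a stretch can separate mt-Co2 from Gm28661, while Gm13341 differs within most of it. In the files, Gm28661 received most of the shared counts and mt-Co2 between 2.6% and 9.22% of the pair's sum, the lowest in control replicate 4 and the highest in PD-L1high replicate 3. Gm13341 had few counts, 32.8 in control replicate 1 against 100172 for Gm28661. The level of mt-Co2 in the files is thus a level of the split as much as of the RNA, and it is uncertain. In all, 17 annotated nuclear copies with at least 90% identity over at least 75 bases were found, 7 of them with at least 99%. Copies held a median of 5.79% of the counts that could belong to mt-Nd3 and 5.2% of those of mt-Nd4. For mt-Atp6 they held 20.2% in control replicate 4 and for mt-Co3 17.3% in PD-L1high replicate 4, against medians of 0.0019% and 0.00264% over the 11 libraries. All copies together made up 0.389% to 0.839% of counts per library.

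**Figure D1:**
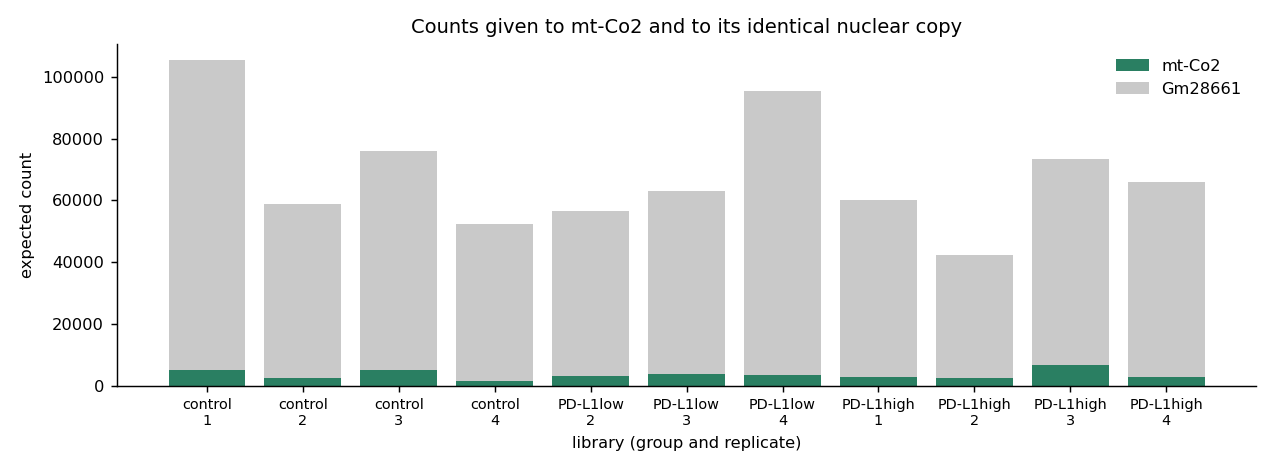
Expected counts given to mt-Co2 (green) and to its nuclear copy Gm28661 (grey), stacked for each of the 11 libraries. The green part is between 2.6% and 9.22% of each bar.

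Of the 133 genes, 103 had enough counts to be tested, namely the 13 mitochondrial mRNAs, both ribosomal RNAs and 88 of the 96 nuclear genes. The 22 tRNAs were at 0 in every library, with an effective length of 0 in the files, so that no tRNA could be measured. The 8 nuclear genes not tested were Cox4i2, Cox6b2, Cox7a1, Cox7b2, Cox8b, Cox8c, Ndufa4l2 and a second gene entry for Atp5o. For 28 of the 96 nuclear genes at least 1 library had a count that was not whole, which marks reads shared with other genes.

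Mitochondrial mRNAs were far more abundant than the mRNAs of their nuclear partners. On the per-length scale of transcripts per 1000000 transcripts (TPM), the median over 10 mitochondrial mRNAs was 7281 ± 1098 (SD, n = 4) in controls, 6372 ± 331.7 (SD, n = 3) in PD-L1low and 6739 ± 1363 (SD, n = 4) in PD-L1high libraries. The median over 79 nuclear subunit genes was 67 ± 15.1, 65.6 ± 11 and 77.6 ± 9.57 TPM. Within a library the first median was 68.9 to 196.4 times the second, with the highest fold in control replicate 1. Left out of the first median were mt-Co2, for its copies, and mt-Atp8 and mt-Nd4l, whose effective lengths of 18.3 and 78.1 bases make TPM values unsteady.

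With the nuclear copies added to their mitochondrial gene, the order of the 11 mitochondrial mRNAs with an effective length of at least 100 bases was much the same from library to library. The short mt-Atp8 and mt-Nd4l, left out of this order, had 28451 ± 2527 and 9163 ± 593.2 TPM in controls (SD, n = 4). Among the 11, the highest was mt-Co1, the catalytic core of cytochrome c oxidase, with a mean of 13631 TPM over the 11 libraries, followed by mt-Atp6 (12847 TPM), a proton channel subunit of ATP synthase, mt-Co2 (10866 TPM) and mt-Co3 (9213 TPM). mRNAs of complexes IV and V thus headed these 11, and mt-Atp6 was above mt-Co2 in 11 of 11 libraries, whereas mt-Co1 was above mt-Atp6 in 9. Below them came mt-Nd6 (8259 TPM) and mt-Nd4 (7925 TPM), which changed places, mt-Nd6 being higher in 6 of 11 libraries. Next were mt-Cytb (6617 TPM), the mitochondrial subunit of complex III, and mt-Nd1 (6226 TPM), mt-Nd2 (5772 TPM), mt-Nd5 (5155 TPM) and mt-Nd3 (4614 TPM), all of complex I. mt-Nd2 was above mt-Nd5 in 11 of 11 libraries, and the remaining neighbouring pairs kept their order in 9 or 10. mt-Nd6 is the mitochondrial mRNA encoded on the other strand and overlaps mt-Nd5 at its end. Whether counting used the strand is not given in the sources used here, so reads from the precursor of the opposite strand may be among its counts. mt-Atp8 with mt-Atp6 and mt-Nd4l with mt-Nd4 overlap as well.

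Among the nuclear genes, the complexes differed in level. In controls the median TPM was 111.5 over the 16 tested genes of complex V, 108.9 over the 13 of complex IV, 74.6 over the 9 of complex III, 52.3 over the 36 of complex I and 46.6 over the 4 of complex II. The 9 assembly and coupling genes had a median of 10.5 TPM, and Cycs, the mobile electron carrier between complexes III and IV, 21.1 ± 2.09 TPM (SD, n = 4). The highest and the lowest gene of complex I were Ndufc1, a small accessory subunit, with 256.7 ± 46.9 TPM and Ndufa13, also known as GRIM-19, with 13.9 ± 3.59 TPM (SD, n = 4). In complex II they were Sdha, the flavoprotein that oxidises succinate, with 78.3 ± 11.3 TPM and Sdhc, a membrane anchor, with 36.8 ± 14.1 TPM. In complex III they were Uqcrb with 157.6 ± 27.8 TPM and Cyc1, the cytochrome c1 subunit, with 36.6 ± 9.39 TPM. Within complex V, Atp5b, the catalytic beta subunit, stood highest with 255 ± 59.4 TPM and Atp5d, the delta subunit, lowest with 51.2 ± 14.3 TPM. Cox6c was the highest of complex IV with 232.1 ± 43.8 TPM, and its lowest tested gene is taken up with the alternative subunits. Among the assembly factors, Ndufaf8 was highest with 16.9 ± 10.7 TPM and Ndufaf1 lowest with 4.62 ± 1.09 TPM.

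**Figure D2:**
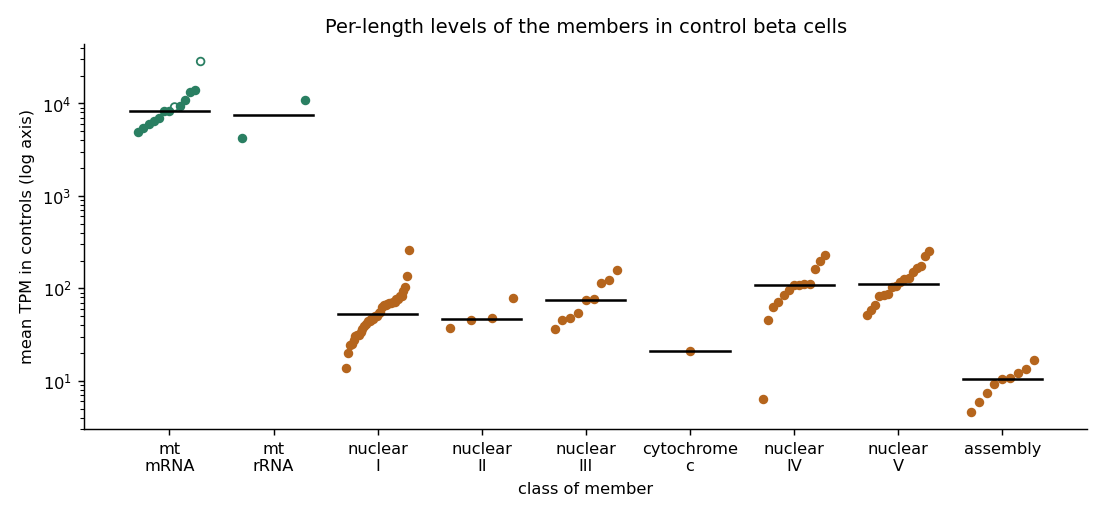
Mean TPM in the 4 control libraries, on a log axis, of each tested gene by class, with nuclear copies added to mitochondrial genes. Points are genes, hollow points have an effective length under 100 bases, and bars are medians over the filled points. The lowest mitochondrial RNA is mt-Rnr1 with 4179 TPM and the highest nuclear gene Ndufc1 with 256.7.

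The share of counts taken by the 13 mitochondrial mRNAs did not separate the groups. It was 10.4%, 5.71%, 6.84% and 6.49% in control replicates 1 to 4, 6.21%, 6.39% and 7.09% in PD-L1low replicates 2 to 4, and 5.52%, 4.6%, 7.53% and 8.36% in PD-L1high replicates 1 to 4. Control replicate 1 was the highest of all libraries and PD-L1high replicate 2 the lowest, and all groups overlapped. In bulk samples such as these, fewer cells of a type and less RNA per cell cannot be told apart. The 96 nuclear genes took 0.357%, 0.459%, 0.435% and 0.417% of counts in the controls, 0.371%, 0.463% and 0.45% in PD-L1low and 0.45%, 0.424%, 0.487% and 0.385% in PD-L1high libraries, where again all groups overlapped and control replicate 1 was the lowest.

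The ratio of the summed counts of mitochondrial mRNAs to nuclear genes therefore varied more between libraries than between groups. On the log2 scale it was 4.87, 3.64, 3.98 and 3.96 in controls, 4.07, 3.79 and 3.98 in PD-L1low and 3.62, 3.44, 3.95 and 4.44 in PD-L1high libraries. The group means were 4.11 in control, 3.94 in PD-L1low and 3.86 in PD-L1high, and the ranges of all 3 groups overlapped. Between libraries of the same replicate number, the log2 ratio of PD-L1high minus that of control was -1.25, -0.20, -0.02 and 0.48, with a mean of -0.25. This mean was 0.09 without the libraries of replicate 1, -0.27 without those of replicate 2, -0.32 without those of replicate 3 and -0.49 without those of replicate 4. For PD-L1low minus control the 3 differences were 0.43, -0.19 and 0.02 (mean 0.09, or between -0.09 and 0.22 with 1 number left out), and for PD-L1high minus PD-L1low they were -0.62, 0.17 and 0.46 (mean 0.00, or between -0.23 and 0.31 with 1 number left out). No direction was shared by all replicate numbers in any of the comparisons. Adding the nuclear copies gave means of -0.25, 0.09 and -0.01.

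**Figure D3:**
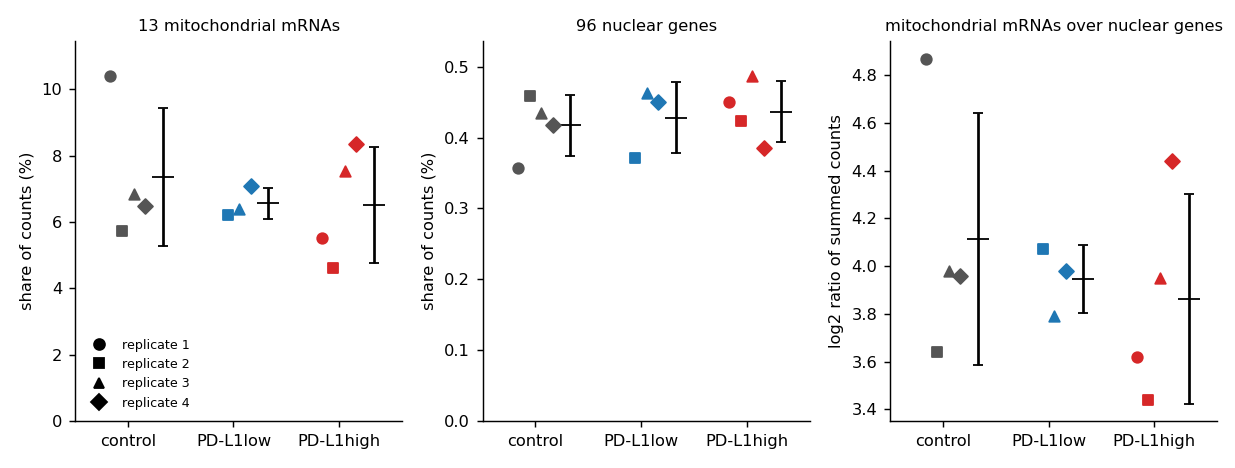
Share of counts (%) of the 13 mitochondrial mRNAs and of the 96 nuclear genes, and the log2 ratio of their summed counts (axis not starting at 0), by group. Symbols are libraries, with the shape giving the replicate number, and bars are mean ± SD. Control replicate 1 is highest in the plots of the mitochondrial share and of the ratio, and the groups overlap in all.

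Mitochondrial mRNAs moved together from library to library. Within groups, the median correlation between 2 mitochondrial mRNAs of their log2 CPM deviations from the group means was 0.86 over the 11 libraries, and it was 0.48 between 2 nuclear members. These points share libraries and their scaling, and most mitochondrial mRNAs share a precursor. The median within-group SD on the log2 scale was 0.39 for mitochondrial mRNAs and 0.26 for nuclear members. The catalytic subunit mt-Co1 shows the pattern. It had 28443, 15735, 18136 and 17138 CPM in control replicates 1 to 4, 17259, 17870 and 20419 CPM in PD-L1low replicates 2 to 4, and 14713, 13007, 22045 and 23144 CPM in PD-L1high replicates 1 to 4. PD-L1high libraries lay on both sides of the controls other than replicate 1.

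None of the 103 tested members passed an adjusted p of 0.05 in any of the 3 comparisons (edgeR's quasi-likelihood test, Benjamini-Hochberg adjustment over 16252 genes). Over all genes tested, 0.991% passed in PD-L1high versus control, 0.08% in PD-L1low versus control and 0.732% in PD-L1high versus PD-L1low. The smallest adjusted p of a member was 0.559, 1 and 0.472. At an unadjusted p under 0.05 there were 4, 0 and 3 members, where 7.65%, 2.1% and 8.52% of all genes tested lay. DESeq2 also called 0, 0 and 0 members, where it called 249, 47 and 202 of all genes tested. Under an unadjusted 0.05 it had 2, 0 and 4 members, where 8.31%, 2.44% and 9% of all genes tested lay. With limma-voom 0, 0 and 0 members were called, where 245, 27 and 180 of all genes tested were. Under an unadjusted 0.05 it had 5, 1 and 3 members, where 13%, 2.58% and 11.5% of all genes tested lay. Control replicate 2 weighed most on these counts. Without it Cycs passed in PD-L1high versus control (log2 fold change 0.69, adjusted p = 0.0143 with edgeR), and 20, 8 and 8 members lay under an unadjusted 0.05, where 15.6%, 3.84% and 8.97% of all genes tested did. Over all libraries left out in turn, the counts ran from 1 to 20, 0 to 8 and 1 to 8. The shares over all genes tested then ran from 4.16% to 15.6%, 1.22% to 3.84% and 5% to 9.25%.

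The intervals around these values were narrow for most members. The 95% interval of the fold change lay wholly within a 2-fold change in either direction for 99 of 103 members in PD-L1high versus control, 98 in PD-L1low versus control and 97 in PD-L1high versus PD-L1low. Over all 16252 genes tested it did so for 10165, 10163 and 9557. The members with wider intervals in every comparison were mt-Co2, mt-Rnr1, mt-Rnr2 and Cox6a2. The others were Ndufaf6 in both comparisons with PD-L1low, up to 1.41 on the log2 scale in PD-L1low versus control, and Cox6c in PD-L1high versus PD-L1low, down to -1.04.

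For the 13 mitochondrial mRNAs the median log2 fold change was -0.17 in PD-L1high versus control, -0.09 in PD-L1low versus control and -0.07 in PD-L1high versus PD-L1low, against -0.02, 0.00 and 0.00 over all genes tested. For the 88 nuclear members it was 0.06, -0.01 and 0.08. Leaving out 1 library moved it between 0.00 (without control replicate 1) and 0.22 (without control replicate 2) in PD-L1high versus control. In PD-L1low versus control it then ran from -0.14 (without PD-L1low replicate 4) to 0.16 (without control replicate 2), and was 0.12 without PD-L1low replicate 2. In PD-L1high versus PD-L1low it ran from -0.04 (without PD-L1low replicate 2) to 0.18 (without PD-L1low replicate 4), and was -0.03 without PD-L1high replicate 3, so that its sign too rested on single libraries in these 2 comparisons. The mitochondrial values had a negative sign for 12, 10 and 10 of the 13 mRNAs, but the sign of their median also rested on single libraries. Without control replicate 1 it was 0.10, 0.04 and 0.07 in the 3 comparisons, and without PD-L1high replicate 1 it was 0.10, 0.05 and 0.06. No PD-L1low library has number 1, so each of these fits leaves 1 library alone in that number. They are therefore nearly the same check. The mitochondrial median changed sign in other fits too. This median was also positive without PD-L1low replicate 3 in PD-L1low versus control (0.05). In PD-L1high versus PD-L1low it was positive without PD-L1low replicate 2 (0.04) or PD-L1high replicate 2 (0.05). Fitting only the 2 groups compared gave -0.17, 0.05 and 0.05. The lowest value in PD-L1high versus control was that of mt-Atp8, -0.31 ± 0.223 (SE, adjusted p = 0.792 with edgeR). The highest was that of mt-Co2, 0.22 ± 0.438, which became -0.14 ± 0.222 once its copies were added. In PD-L1low versus control the values ran from -0.28 for mt-Nd4l to 0.20 for mt-Co2, and in PD-L1high versus PD-L1low from -0.39 for mt-Atp8 to 0.14 for mt-Nd4.

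The mitochondrial ribosomal RNAs varied more between libraries than most members. They took 0.942% to 3.52% of counts after the depletion of ribosomal RNA in library preparation. mt-Rnr1, of the small subunit (chromosome M, 70 to 1024), had 4833, 2384, 3449 and 2712 CPM in controls, 3639, 3201 and 4026 CPM in PD-L1low and 3151, 1657, 5339 and 6961 CPM in PD-L1high libraries, with log2 fold changes of 0.27 ± 0.397, 0.23 ± 0.442 and 0.05 ± 0.435 (SE) in the 3 comparisons. PD-L1high libraries held both the lowest and the highest values. For mt-Rnr2, of the large subunit, the log2 fold changes were 0.12 ± 0.383, 0.22 ± 0.424 and -0.10 ± 0.412. The count of mt-Rnr2 was 4.01 to 5.27 times that of mt-Rnr1 in all libraries.

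**Figure D4:**
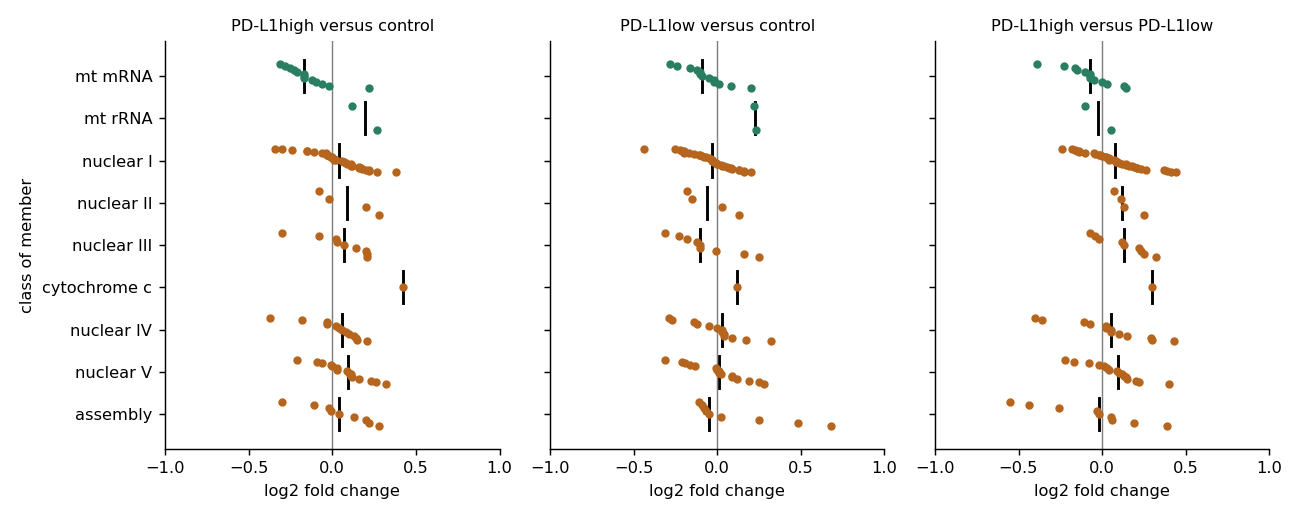
Log2 fold change of each tested member by class in the 3 comparisons. Points are genes, green for mitochondrial and brown for nuclear ones, and black bars are medians of the class. No point lies beyond 0.68 in either direction and none passed an adjusted p of 0.05.

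In PD-L1high versus control, values were spread around 0 in every complex. Complex I genes ranged from -0.34 (Ndufa11) to 0.38 (Ndufa3) on the log2 scale with a median of 0.04, complex II from -0.08 to 0.28 with a median of 0.09, complex III from -0.30 to 0.21 with a median of 0.07, complex IV from -0.37 to 0.21 with a median of 0.06, and complex V from -0.21 to 0.32 with a median of 0.10. The nuclear member with the smallest p was Cycs (chromosome 6, 50562563 to 50566538, minus strand), whose product carries electrons and, once released into the cytosol, starts apoptosis. Cycs had 54.8, 67.3, 54.2 and 60.6 CPM in controls, 42.2, 76.2 and 82.9 CPM in PD-L1low and 83.4, 60.8, 97.5 and 81.4 CPM in PD-L1high libraries. PD-L1high replicates 1, 3 and 4 were above every control and replicate 2 was not, and PD-L1low libraries lay on both sides. Its log2 fold change in PD-L1high versus control was 0.42 ± 0.17 (SE, 95% interval 0.05 to 0.78, adjusted p = 0.559 with edgeR).

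Atp5f1, a subunit of the peripheral stalk of ATP synthase, had 132.5, 168.4, 126.6 and 144.7 CPM in controls and 155, 165.3, 196.6 and 200.6 CPM in PD-L1high libraries (log2 fold change 0.32 ± 0.134, adjusted p = 0.589). The ranges overlapped through control replicate 2. Sdhd, a membrane anchor of complex II, followed with 0.28 ± 0.127 (adjusted p = 0.643). The members with the smallest p among negative values were Ndufb2, an accessory subunit of complex I (-0.30 ± 0.134, adjusted p = 0.624), Cyc1 (-0.30 ± 0.159, adjusted p = 0.711) and Ndufa11 (-0.34 ± 0.203, adjusted p = 0.749). PD-L1high replicate 4 was the lowest library of all for these 3 genes, with 17.8, 15.7 and 8.52 CPM.

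In PD-L1low versus control, median log2 fold changes were -0.03 in complex I, -0.06 in complex II, -0.10 in complex III, 0.03 in complex IV and 0.01 in complex V. The smallest p among positive values belonged to Atp5s (0.48 ± 0.233, SE), Ndufaf6, an assembly factor of complex I (0.68 ± 0.343), and Cox5a, a subunit of complex IV (0.32 ± 0.168). For Atp5s, PD-L1low replicate 4 had 23.7 CPM, replicates 2 and 3 had 11.5 and 12.9, and controls had 13.7, 11.3, 9.84 and 11.9. A single library thus stood above the rest. Among negative values they were Atp5g1, a gene for the ring subunit c of ATP synthase (-0.31 ± 0.172), Ndufb4, an accessory subunit of complex I (-0.44 ± 0.259), and Cox8a (-0.27 ± 0.172), and every adjusted p in this comparison was 1 with edgeR.

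In PD-L1high versus PD-L1low, medians were 0.08 in complex I, 0.12 in complex II, 0.13 in complex III, 0.05 in complex IV and 0.10 in complex V. The smallest p was that of Ndufa12, an accessory subunit of complex I, with 24.2, 33.9 and 27.7 CPM in PD-L1low replicates 2 to 4 and 35.3, 29.8, 41.5 and 38.5 CPM in PD-L1high replicates 1 to 4 (0.39 ± 0.148, SE, adjusted p = 0.472). PD-L1high replicate 2 was below PD-L1low replicate 3. Next were Ndufc2, also of complex I (0.41 ± 0.167, adjusted p = 0.522), and Atp5g1 (0.40 ± 0.176, adjusted p = 0.552). On the negative side were Atp5s (-0.44 ± 0.233, adjusted p = 0.642), Ndufaf6 (-0.55 ± 0.343, adjusted p = 0.71) and Atp5j, a coupling subunit of ATP synthase (-0.22 ± 0.179, adjusted p = 0.788).

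Few members had CPM values that did not overlap between 2 groups. In PD-L1high versus control this was 1 of 103 members, Ndufaf7, lower in PD-L1high, where 4.29% of all genes tested did not overlap. In PD-L1low versus control it was mt-Nd4l, where 2.71% of all genes did not overlap. It had 604.4, 617.8 and 598.8 CPM in PD-L1low replicates 2 to 4 against 624.9 to 987.8 in controls. These values leave out its nuclear copy, which held 4.82% of the shared counts in PD-L1low replicate 3 and 0% in the controls. That share is larger than the gap between 617.8 and 624.9 CPM, so the lack of overlap rests on the split of reads. In PD-L1high versus PD-L1low the 2 members were Cox6a2 and Ndufaf3, an assembly factor, where 8.01% of all genes did not overlap. Ndufaf3 had 10.1, 13.4 and 14.1 CPM in PD-L1low and 14.2, 15.4, 15.1 and 17 CPM in PD-L1high libraries.

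Several subunits of complexes IV and V have alternative genes that are used in different tissues. In these beta cells the widely expressed forms prevailed in every group. Cox4i1 had 110.4 ± 24.1 TPM in controls (SD, n = 4), 112.8 ± 10.9 in PD-L1low (SD, n = 3) and 114.2 ± 18.2 in PD-L1high libraries (SD, n = 4), whereas Cox4i2, the form linked to low oxygen, had 0 counts in all 11 libraries, which allows up to 0.19 to 0.288 CPM per library (3 counts of the unscaled total, counting error only). Cox8b, the heart and muscle form, and Cox8c were also at 0, beside 195.8 ± 62.1 TPM of Cox8a in controls. Cox7a1, the muscle form, summed to 3 counts over the 11 libraries, beside 109.6 ± 12.9 TPM of Cox7a2 in controls. Cox7a2l, placed beside them for its symbol and not as a tissue form, had 111.7 ± 22.7 TPM in controls. Cox7b2 summed to 3 counts, and Cox6b2 and Ndufa4l2 to 11 each, while their partners Cox7b, Cox6b1 and Ndufa4 had 70.6 ± 10.4, 62.9 ± 15 and 108.9 ± 15.4 TPM in controls.

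The exception was Cox6a2, the form of heart and skeletal muscle, with counts in 11 of 11 libraries. It had 6.3 ± 4.03 TPM in controls, 6.37 ± 0.357 in PD-L1low and 4.21 ± 1.26 in PD-L1high libraries, beside 161.6 ± 65.1, 141 ± 50.5 and 179.1 ± 18.3 TPM of Cox6a1. It made up 1.31% to 5.75% of the TPM of the pair. In CPM, Cox6a2 had 0.543, 2.77, 4.77 and 3.4 in controls, 2.9, 2.96 and 3.44 in PD-L1low, and 1.61, 1.03, 2.59 and 2.49 in PD-L1high libraries, the lowest being control replicate 1. The log2 fold change was -0.40 ± 0.572 in PD-L1high versus PD-L1low (SE, adjusted p = 0.897 with edgeR). Markers of striated muscle and brown fat, 7 genes with Myh4 and Mb at 0 throughout, summed to 0.208 to 1.2 CPM over all libraries. The ring subunit c of ATP synthase, encoded by 3 genes for the same mature protein, came from all of them, with 116.5 ± 21.9 TPM of Atp5g3, 83.8 ± 36 of Atp5g1 and 83.6 ± 30.3 of Atp5g2 in controls.

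**Figure D5:**
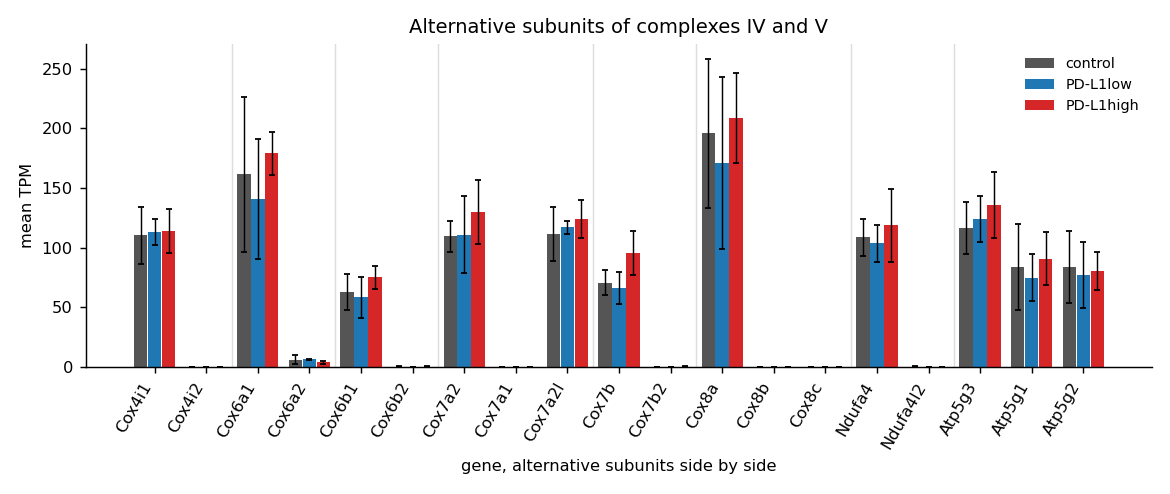
Mean TPM ± SD of the alternative subunit genes in control (n = 4), PD-L1low (n = 3) and PD-L1high (n = 4) libraries, with partners side by side between the vertical lines. Cox7a2l is shown beside Cox7a2 and Cox7a1 for its symbol. Cox4i2, Cox7a1, Cox8b and Cox8c are at or near 0, while Cox6a2 is low but present in each group.

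Promoters of 76 of the 96 nuclear members were found in a RefSeq table for GRCm38.p6, each from 250 bases before to 50 after a transcription start. The letters CGCATGCG, the core of the site of NRF-1, a factor known to drive nuclear respiratory genes, read the same on both strands. They stood in the promoters of 12 of these 76 members, or 15.8%, against 2.07% of 27025 symbols with a promoter and 4.28% of the 10526 tested genes with one. The 12 were Atp5g2, Atp5j, Atp5k, Atp5l, Cox6a1, Cycs, Ndufa11, Ndufa8, Ndufaf4, Ndufaf5, Uqcr11 and Uqcrc1. The letters TGACGTCA, the cyclic AMP response element, also the same on both strands and without overlap with the first motif, stood in 5 members, or 6.58%, against 2.03% and 3.68%. A match is a description of the sequence only. The stretches below are shown because Cycs had the smallest p of the nuclear members in PD-L1high versus control and holds both motifs, and Cox6a1 is the main form of the pair above. Capitals mark the motifs, and the stretches run 5′ to 3′ on the minus strand, at chr6:50566603-50566758 and chr5:115349092-115349139 (GRCm38).
Cycs: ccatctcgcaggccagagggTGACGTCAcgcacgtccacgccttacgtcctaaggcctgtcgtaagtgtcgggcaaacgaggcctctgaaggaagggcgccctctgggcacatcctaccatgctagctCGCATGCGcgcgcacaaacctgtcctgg
Cox6a1: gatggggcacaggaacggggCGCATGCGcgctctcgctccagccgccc

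Other genes of mitochondrial gene expression and energy metabolism were counted in 9 lists. In none of them did a gene pass an adjusted p of 0.05 with edgeR and its filter on low counts in any comparison, and Mterf1b and Ssbp1 passed under other settings given with them. The comparisons are given below in the order PD-L1high versus control, PD-L1low versus control and PD-L1high versus PD-L1low. Over all genes tested, 7.65%, 2.1% and 8.52% had an unadjusted p under 0.05. The counts of all 9 lists are to be read beside these shares. For the assembly factors outside the rule (40 tested), unadjusted p under 0.05 was reached by 3, 1 and 2 genes. Their median log2 fold changes were 0.04, 0.00 and 0.04. Cox15, which makes heme A for complex IV, had 0.36 ± 0.118 (SE) in PD-L1high versus PD-L1low, and Coa4, another assembly factor of complex IV, -0.70 ± 0.277 in PD-L1low versus control. The 78 mitochondrial ribosomal protein genes gave 4, 1 and 7, with medians of 0.04, -0.03 and 0.08. Of these, Mrpl27 had 0.76 ± 0.216 in PD-L1high versus control (adjusted p = 0.209) and Mrpl36 0.52 ± 0.19 in PD-L1high versus PD-L1low (adjusted p = 0.47). The 9 translation factors gave 0, 0 and 2, with medians of 0.09, 0.07 and -0.07, and the values were 0.47 ± 0.199 for the elongation factor Tufm and -0.36 ± 0.168 for the initiation factor Mtif2 in PD-L1high versus PD-L1low.

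Transcription and RNA processing factors of mitochondria (26 tested) gave 1, 1 and 1 under an unadjusted 0.05, with medians of -0.01, 0.05 and -0.02. Mterf1b, a member of the transcription termination factor family, had 6.83, 2.92, 1.99 and 1.07 CPM in controls, which overlapped both sorted groups. It had 2.73, 3.33 and 4.42 CPM in PD-L1low and 1.8, 1.59, 0.865 and 0.104 CPM in PD-L1high libraries. These did not overlap, as for 8.01% of all genes tested in PD-L1high versus PD-L1low. Its log2 fold change was -2.40 ± 0.64 (adjusted p = 0.172 with edgeR), and it passed with edgeR without a filter on low counts (adjusted p = 0.00617), with DESeq2 (adjusted p = 0.0145) and with limma-voom (adjusted p = 0.0348), each with a negative value, whereas without the replicate block the adjusted p was 0.92. Fastk had -0.36 ± 0.155 in PD-L1low versus control. The 9 genes of mitochondrial DNA replication and upkeep gave 1, 1 and 1, with medians of -0.17, 0.00 and -0.09. Ssbp1, the single-stranded DNA-binding protein of mitochondria, had 44.5, 25.3, 31.8 and 19.1 CPM in controls, which overlapped both sorted groups. It had 33, 32.5 and 42.4 CPM in PD-L1low and 28.1, 23.9, 28.7 and 19.6 CPM in PD-L1high libraries (-0.68 ± 0.199, adjusted p = 0.252 with edgeR, and 0.0117 without a filter on low counts). Dguok, a kinase that supplies deoxynucleotides, had -0.43 ± 0.17 in PD-L1high versus control.

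Regulators of mitochondrial biogenesis (10 tested) gave 1, 0 and 1, with medians of 0.13, -0.01 and 0.11. The coactivator Ppargc1b had 3.8, 5.17, 4.29 and 3.85 CPM in controls and 2.83, 2.78, 2.52 and 0.727 CPM in PD-L1high libraries. All 4 of the latter were below every control, where 4.29% of all genes tested did not overlap. Its log2 fold change in PD-L1high versus control was -1.01 ± 0.4 (adjusted p = 0.539 with edgeR). The nuclear receptor Esrra had 0.35 ± 0.231 in the same comparison. The 18 genes of pyruvate entry and the citric acid cycle gave 0, 0 and 0, with medians of 0.02, -0.02 and 0.03, and the 5 carrier and uncoupling genes 0, 0 and 0, with medians of 0.05, 0.05 and 0.16. The values with the smallest p there were 0.24 ± 0.122 for Fh1 and -0.24 ± 0.156 for Suclg2 in PD-L1high versus PD-L1low, and 0.23 ± 0.137 for Slc25a5 and 0.21 ± 0.131 for Slc25a4, carriers of ADP and ATP, in PD-L1high versus control. Genes induced by hypoxia (12 tested) gave 2, 0 and 1, with medians of -0.04, 0.05 and -0.08. Of these, Pfkfb3, which drives glycolysis, had 0.73 ± 0.229 in PD-L1high versus control (adjusted p = 0.316), and Ldha, which is kept low in beta cells, had at most 1.55 CPM in any library. Ldha had 1.24, 1.55 and 1.12 CPM in PD-L1low and 0, 0.238, 0.236 and 0.104 CPM in PD-L1high libraries (-2.67 ± 1.051, adjusted p = 0.511 with edgeR). These did not overlap, as for 8.01% of all genes tested. Controls, with 0, 1.35, 0.242 and 1.43 CPM, overlapped both sorted groups.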

How the data were processed

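The expected counts and TPM values per gene, with effective lengths, were made by the authors with RSEM (version not given in the sources used here) after alignment of the reads by STAR 2.5.2b (build GRCm38.p6, genes of GenCode M23), and deposited without further normalization. The libraries were made with a strand-specific kit from random primers after ribosomal RNA depletion and sequenced as paired reads. Whether counting used the strand or molecular identifiers is not given in the sources used here. For their tests the authors ran DESeq2 1.32.0 and put the batch in its design. The methods call each n an independent biological sample, and the titles give the same n to a control, a PD-L1high and, for 3 of the 4 numbers, a PD-L1low library, so libraries of 1 number may share islets.

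Expected counts were rounded, which changed a library total by at most 0.000388%, and tested with edgeR 4.0.16 in R 4.3.3 (TMM scaling, a minimum count of 10, all 3 groups in 1 quasi-likelihood fit with the replicate number as a term, since the titles share it between groups and it stands for the authors' batch). Standard errors come from the fold change and the F statistic, and 95% intervals from the fit's degrees of freedom. CPM values use TMM-scaled totals. Shares and ratios use unscaled counts and were described without a test. Alternatives were DESeq2 1.42.0, limma-voom (limma 3.58.1), other scalings and filters (a minimum count of 50), no replicate term, only the 2 groups compared, copies added and leaving out each library. Depth was 10422038 to 15810817 counts per library. The fitting was tested on simulated data with changes larger than those of any member. That test does not show whether changes of the members' size would be found.

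GENCODE M21 (GRCm38) gave positions and, for 55227 of 55487 genes, a symbol, 116 of them not unique. Promoters came from RefSeq GRCm38.p6, and nuclear copies from blastn 2.17.0. Named genes are the mitochondrial mRNAs and rRNAs, any member past the threshold, the 3 nuclear members with the smallest unadjusted p in each direction per comparison, alternative subunits, the highest and lowest gene per complex, and up to 2 genes per list by smallest p. The members and lists were chosen with earlier results of these data known.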

Additional observations from a re-analysis of the deposited data

Results flagged for a closer look

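In groups of 4 libraries, a library is pointed out here when its gap to the nearest of the others exceeds Dixon's critical share of the group's whole range, which chance gives in about 1 of 20 groups. This held for 8 of 124 groups checked. Control replicate 1 gave 6 of them. It was above the other controls for mt-Atp6 (9535 CPM against 5055 to 5344), mt-Nd4 (15758 against 7495 to 8465), mt-Nd5 (13308 against 7639 to 8464), mt-Nd6 (3783 against 2088 to 2339) and mt-Cytb (9738 against 5664 to 6311), and below them for Atp5g1 (23.3 against 49 to 53.2). These genes share the library and its scaling, so the 6 values are not separate observations. Its share of counts on mitochondrial mRNAs was also the highest, at 10.4%. The CPM values above leave out the nuclear copies of mt-Atp6 and mt-Nd4. For mt-Atp6, copies held 20.2% of the shared counts in control replicate 4 and 0.0019% in control replicate 1. For mt-Nd4 they held 3.83%, 6.91%, 0.0155% and 7.52% in control replicates 1 to 4. Whether mt-Atp6 and mt-Nd4 stay flagged with copies added was not tested.

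For Ppargc1b, PD-L1high replicate 4 had 0.727 CPM against 2.52 to 2.83 in the other PD-L1high libraries. For Pfkfb3, control replicate 3 had 6.58 CPM against 8.22 to 8.33 in the other controls.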

How the results depend on the processing

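Of 279 alternative values for the main counts, medians, shares and ratios, 274 stayed within the spread between libraries or within 1.5 times a count. These values are not all separate checks. For shares and ratios, leaving out either library of a same-numbered pair drops the whole pair and gives the same value again. The exceptions were 1 member called (Cycs) and a nuclear median of 0.22 in PD-L1high versus control without control replicate 2, and the nuclear share taken from TPM, where the differences were 0.084, -0.056 and 0.056 percentage points in PD-L1high versus control, PD-L1low versus control and PD-L1high versus PD-L1low (0.020, -0.009 and 0.004 from counts). Leaving out 1 library gave 0 to 1 members called in PD-L1high versus control, and nuclear medians of 0.00 to 0.22, -0.14 to 0.16 and -0.04 to 0.18 in the 3 comparisons. The mitochondrial median then ran from -0.32 to 0.10, from -0.24 to 0.05 and from -0.26 to 0.07 in the 3 comparisons, so that its sign depended on which library was in, and fitting only the 2 groups compared gave -0.17, 0.05 and 0.05. Of 1027 alternative values for named genes, 991 kept direction and call, 5 passed the threshold (Cycs as above, Mterf1b in 3 and Ssbp1 in 1) and 31 changed sign. Leaving out 1 library in PD-L1high versus control gave -0.09 to 0.66 for mt-Co2, -0.07 to 0.57 for mt-Rnr1 and -0.24 to 0.42 for mt-Rnr2. In PD-L1low versus control it gave -0.15 to 0.51, -0.23 to 0.47 and -0.12 to 0.42. In PD-L1high versus PD-L1low it gave -0.29 to 0.23, -0.38 to 0.43 and -0.59 to 0.19, with -0.18 to 0.32 for mt-Nd4 and -0.36 to 0.04 for Atp5j. With copies added, mt-Co2 had -0.14 in PD-L1high versus control and -0.18 in PD-L1high versus PD-L1low, where library totals gave it -0.02, limma-voom gave mt-Rnr1 -0.01 and no replicate block gave mt-Rnr2 0.08. Apart from the added copies and the left-out libraries themselves, the cause was not tested.

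The fits and the differences of shares and ratios matched libraries by replicate number, although same-numbered libraries did not all deviate together (correlations of -0.329 to 0.408). The lowest was that of control replicate 2 with PD-L1low replicate 2, and the other same-numbered pairs were positive. Pairs of different numbers from different groups spanned a similar range, from -0.352 to 0.334. Without the replicate block 0 members were called in each comparison, with mitochondrial medians of -0.15, -0.13 and 0.01 and log2 ratio differences of -0.25, -0.17 and -0.08. The 8 members not tested had at most 7 counts in any library, and the 22 tRNAs had none.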
